A study of Mus musculus with 8 samples.

Results

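The androgen-binding protein secretoglobins of the mouse were examined in the vomeronasal organ, the tubular chemosensory organ in the nasal septum, together with the glands that open into it. The family was taken as every gene of the deposited table whose symbol begins with Scgb1b, which encode alpha subunits, or with Scgb2b, which encode beta-gamma subunits. This gave 30 of the 27532 genes listed, 12 alpha and 18 beta-gamma. All 12 alpha genes were annotated as protein-coding in GENCODE M21. Of the beta-gamma genes 11 were protein-coding and 7 were unprocessed pseudogenes, namely Scgb2b1, Scgb2b4-ps, Scgb2b28-ps, Scgb2b6, Scgb2b10, Scgb2b30 and Scgb2b33. RefSeq typed 6 of these 7 as protein-coding, the exception being Scgb2b28-ps, so the word pseudogene below follows GENCODE. The annotation holds 64 genes of the family, 31 alpha and 33 beta-gamma, and those without a row in the table used here, Scgb2b26 among them, were not analysed here.

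The series compared 4 mice heterozygous for Tex15 with 4 Tex15 knockout mice by bulk sequencing of polyadenylated RNA. The allele and the strain are not given in the sources used here, and the control animals carried 1 disrupted copy themselves, since no wild-type animals were analysed here. Heterozygous replicate 1 was a male of 11.4 weeks, replicate 2 a female of 14.6 weeks, and replicates 3 and 4 females of 11.9 weeks. Knockout replicate 1 was a female of 11.9 weeks, replicates 2 and 3 were males of 11.9 weeks, and replicate 4 was a male of 12.1 weeks. Each library came from an animal with its own number. Heterozygous replicates 1 and 2 had animal numbers of another series than the remaining 6 animals, which were numbered in the 7100s, and no knockout belonged to the earlier series. The title of each library ends in a number whose meaning is not given in the sources used here. Heterozygous replicates 3 and 4 and knockout replicates 1, 2 and 3 share it, and each of the other 3 libraries has its own. Values are TPM, which count reads per base of exon and are scaled to a common sum of 1000000 per library, and the recovered depth was 17884115 to 26415661 reads per library.

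Heterozygous replicate 1 stood apart from the other libraries. Omp, a marker of mature olfactory and vomeronasal sensory neurons, was at 66.6 TPM there and at 571 to 943 TPM in the other 7. The sex labels were met by all 5 sex-linked genes, each of which was called by sex. Tex15 itself fell short of the threshold, with a log2 fold change of −1.22 against the median gene (limma adjusted p = 0.794).

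Androgen-binding proteins are small secreted dimers in which an alpha subunit is joined to a beta-gamma subunit by disulfide bonds. They bind male steroid hormones and are known from mouse saliva, tears and nasal secretions, where they have been studied as cues in mate choice. The genes lie in a cluster that expanded by duplication in the mouse, largely as divergent pairs of 1 alpha and 1 beta-gamma gene. The salivary subunits are encoded by Scgb1b27, the salivary alpha gene, with Scgb2b26 and Scgb2b27, the salivary beta and gamma genes.

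The listed members spanned chr7:31263757-34022881 (GRCm38). Of the alpha genes 11 of 12 were on the plus strand and of the beta-gamma genes 16 of 18 on the minus strand. In all 10 pairs with the same number the 2 genes were on opposite strands. The starts of the 2 genes were 6888 to 6953 bases apart in 7 of the 10 pairs, 7541 in pair 27, 4487 in pair 24 and 1313 in pair 2. The annotated spans of Scgb2b2 and Scgb1b2 overlap on opposite strands, and whether the counting used strand is not given in the sources used here, so reads of these 2 genes may not be separated.

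Members resemble each other closely, and this bears on every single-gene value below. The first 90 coding bases of 5 beta-gamma genes, from GENCODE M21 transcripts, are printed to show how little separates some of them, chosen as abundant or called members and the salivary gamma gene. Capitals mark bases that differ from Scgb2b20 in a global alignment, with bases missing from either sequence left unmarked.
Scgb2b20: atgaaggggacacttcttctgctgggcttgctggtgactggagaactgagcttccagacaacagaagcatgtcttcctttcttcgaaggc
Scgb2b7: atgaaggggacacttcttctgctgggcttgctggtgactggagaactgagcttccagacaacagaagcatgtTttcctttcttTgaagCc
Scgb2b12: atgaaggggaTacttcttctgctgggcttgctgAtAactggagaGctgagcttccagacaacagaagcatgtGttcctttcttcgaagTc
Scgb2b17: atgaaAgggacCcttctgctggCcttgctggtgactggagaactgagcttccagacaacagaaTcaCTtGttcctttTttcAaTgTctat
Scgb2b27: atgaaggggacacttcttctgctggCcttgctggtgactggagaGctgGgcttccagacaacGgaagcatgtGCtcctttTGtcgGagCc
Identity to Scgb2b20 over the whole coding sequence was 98.2% for Scgb2b7, 93.2% for Scgb2b12 and 69.9% for Scgb2b27. For Scgb2b17 it was 64.9%, with the 246 coding bases of its transcript set against 336 in Scgb2b20. Scgb2b15 had the same 90 bases as Scgb2b17.

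Near-identity limits how far reads can be assigned. Of the 30 members, 10 shared no stretch of 100 transcript bases with another gene, 6 had under 50% of such stretches to themselves, and 4 had none. Scgb1b15 and Scgb1b17 have identical transcripts, and their values are identical in every library. Scgb2b15 and Scgb2b17 also share a transcript, and 100% of the stretches of Scgb2b15 occur in Scgb2b17. For Scgb1b29, 100% of the stretches occur in Scgb1b7, and some occur in Scgb1b11 and Scgb1b18, which are not among the 30. How multiply matching reads were counted is not given in the sources used here. These members are therefore reported with uncertain separation, and sums over the family may carry reads that stand in more than 1 row.

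The family was abundant, and its level varied widely between animals. Summed over the 30 genes it was 1251, 2724, 5162 and 5023 TPM in heterozygous replicates 1 to 4 and 16677, 8681, 18966 and 3354 TPM in knockout replicates 1 to 4. The highest library was 15.2 times the lowest. The family made up 0.125% to 0.516% of all TPM in heterozygous and 0.335% to 1.90% in knockout libraries. Knockout replicates 1, 2 and 3 lay above every heterozygous library, and knockout replicate 4 lay within the heterozygous range. In bulk tissue, fewer cells of a type and less RNA per cell cannot be told apart.

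**Figure D1:**
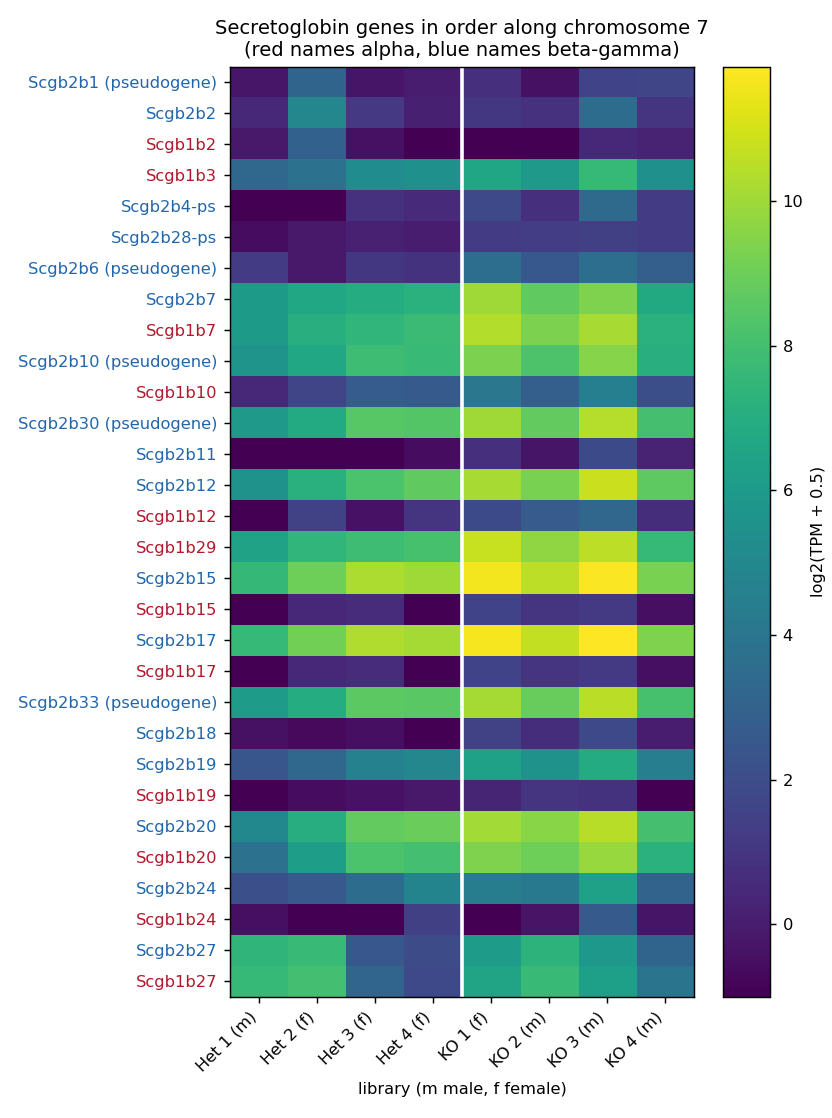
Level of each of the 30 genes in each library, as log2(TPM + 0.5), with rows in chromosomal order and the 4 heterozygous libraries left of the white line. Most rows from Scgb1b3 to Scgb1b24 are brightest in knockout replicates 1 and 3, while the last 2 rows are bright in heterozygous replicates 1 and 2 and knockout replicate 2, and the first 3 in heterozygous replicate 2.

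The most abundant members were beta-gamma genes. Scgb2b17 (ENSMUSG00000098094) averaged 1558 TPM over the 8 libraries and Scgb2b15 (ENSMUSG00000097972) 1470.2 TPM. Among beta-gamma genes Scgb2b12 followed with 611 TPM and Scgb2b20 with 577 TPM. The highest alpha genes were Scgb1b29 at 641 TPM, Scgb1b7 at 484 TPM, Scgb1b20 at 362 TPM and Scgb1b27 at 107 TPM. The highest pseudogene was Scgb2b33 at 539 TPM, close to the coding gene Scgb2b20. The 7 pseudogenes together gave 16.9% to 24.9% of the beta-gamma TPM of a library. At the other end Scgb1b19 averaged 0.542 TPM and Scgb2b11 0.703 TPM. In all, 18 members were at 0.5 TPM or more in every library, and 9 were at 0 in at least 1 library. For a transcript of 500 bases, 3 reads correspond to 0.367 to 0.654 TPM, so levels near or below this are within counting error.

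Beta-gamma RNA exceeded alpha RNA in every library. Summed alpha TPM was 365, 669, 762 and 807 in heterozygous replicates 1 to 4 and 3954, 2299.6, 3967 and 554 in knockout replicates 1 to 4. Summed beta-gamma TPM was 886, 2055, 4400.2 and 4216 in heterozygous and 12722, 6382, 14999 and 2800.2 in knockout libraries. Both sums were lowest in heterozygous replicate 1 and highest in knockout replicate 3. The number of beta-gamma TPM per alpha TPM was 2.43, 3.07, 5.78 and 5.23 in heterozygous and 3.22, 2.78, 3.78 and 5.06 in knockout libraries. The ratios of the groups overlapped, with means of 4.13 ± 1.63 against 3.71 ± 0.989 (SD, n = 4 each).

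Alpha and beta-gamma sums rose and fell together across the 8 animals. Pearson's r of the log2 sums was 0.940 (exact permutation p = 0.000223) and Spearman's rho 0.952 (exact permutation p = 0.00114). Without knockout replicates 1 and 3, the 2 libraries farthest from the median alpha sum, r was 0.846 over 6 libraries (exact permutation p = 0.0486). With 1 member kept per group of near-identical genes, the value over those 6 libraries was 0.823 (exact permutation p = 0.0583). Over the same 6 libraries r was 0.957 without pair 27 (exact permutation p = 0.00278), 0.865 with protein-coding members only (exact permutation p = 0.0375) and 0.839 after median-ratio scaling (exact permutation p = 0.0389). Both sums come from the same libraries and share their scaling.

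Both sums had higher means in knockout, by differences that did not pass the exact test over all animals. The knockout mean was higher by 1.76 on the log2 scale for alpha (two-sided exact permutation test, p = 0.114, adjusted p = 0.343 over 6 tests) and by 1.66 for beta-gamma (p = 0.114 by the same exact test, adjusted p = 0.343). The smallest p this design allows is 0.0286. The result turned on knockout replicate 4, without which the differences were 2.41 and 2.15, each at the smallest p of the exact test, 0.0286. Within the 7100s animals, 2 heterozygous against 4 knockout, the differences were 1.43 for alpha and 0.83 for beta-gamma, each with an exact permutation p of 0.4. In the 5 libraries whose titles end in the same number, all 3 knockout libraries lay above both heterozygous ones in each sum. The log2 differences there were 2.08 for alpha (exact permutation p = 0.1, the smallest that 10 assignments allow) and 1.31 for beta-gamma (exact permutation p = 0.2). Within females the differences were 2.41 for alpha and 1.92 for beta-gamma, with 1 knockout animal, and within males 2.23 and 2.86, with 1 heterozygous animal. The mean of the within-sex differences was 2.32 for alpha and 2.39 for beta-gamma, each with an exact permutation p of 0.0625 within sex, the smallest that 16 assignments allow. The log2 ratio of beta-gamma to alpha differed by −0.10 between genotypes (exact permutation p = 0.829, adjusted p = 0.857). This difference varied with the animals compared. It was −0.60 within the 7100s animals (exact permutation p = 0.133), −0.77 in the 5 libraries with the same title number (exact permutation p = 0.1) and, over all 8 libraries without pair 27, −0.39 (exact permutation p = 0.114). Within females it was −0.49 and within males 0.63.

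**Figure D2:**
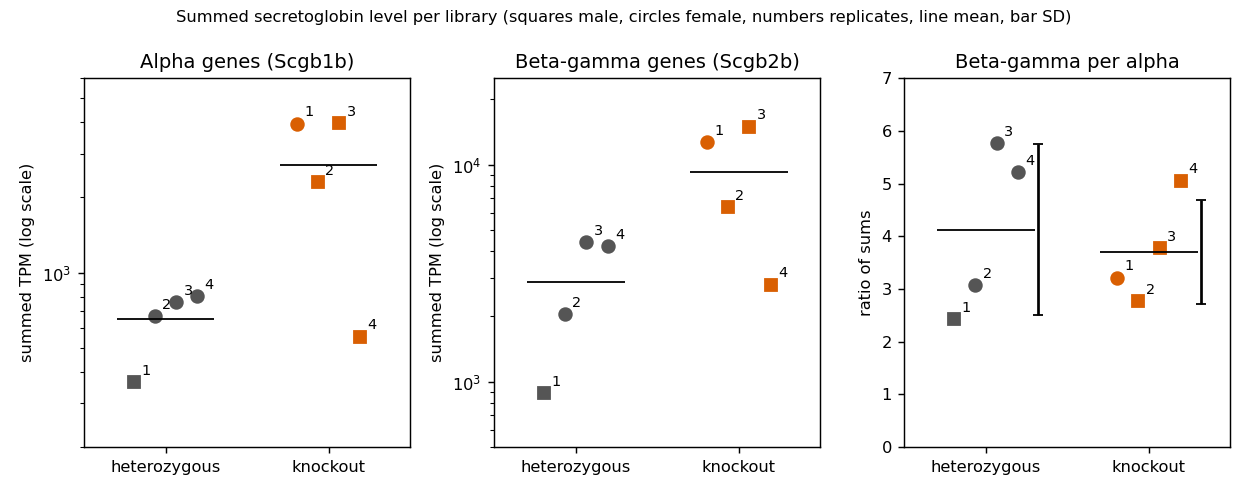
Summed TPM of alpha genes and of beta-gamma genes (log axes) and their ratio in each library, by genotype, with squares for males, circles for females, replicate numbers beside the points, lines for group means and bars for SD in the ratio panel. Knockout replicates 1, 2 and 3 lie above all heterozygous libraries in both sums, knockout replicate 4 lies among the heterozygous libraries, and the ratios of the 2 groups overlap.

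Same-numbered partners fell into balanced and unbalanced pairs. In pairs 7, 20 and 27 both genes were abundant. Scgb2b20 was at 1.59 times the mean TPM of Scgb1b20, Scgb2b7 at 0.690 times that of Scgb1b7, and Scgb2b27 at 0.796 times that of Scgb1b27. The exon lengths behind the values of Scgb2b7, Scgb2b27 and Scgb1b27 include longer isoforms. When reads were divided by the length of the shortest transcript instead, the beta-gamma to alpha ratio was 1.24 in pair 7, 1.60 in pair 20 and 1.21 in pair 27. Which partner of pairs 7 and 27 was higher thus depended on the length used.

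In the other 7 pairs the alpha gene was low and the beta-gamma gene exceeded it in all 8 libraries. The ratio of mean TPM was 5.13 in pair 2, 20.2 in pair 24, 36.5 in pair 10, 78.4 in pair 19 and 209 in pair 12. It was 1509.9 in pair 15 and 1600.4 in pair 17. In pair 17, Scgb2b17 held 68003 reads over the 8 libraries and Scgb1b17 held 35. The rows of Scgb1b15 and Scgb1b17 held 35 reads each, with equal numbers in every library, and these may be the same reads. The alpha genes Scgb1b3 and Scgb1b29 had no listed partner of the same number, nor had 8 of the beta-gamma genes.

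No pair differed between genotypes in its ratio beyond the spread of the animals. In pair 10, where Scgb1b10 was low and the pseudogene Scgb2b10 high, the log2 ratio ranged only from 4.99 to 5.34 over the 8 libraries. In pair 20 it ranged from 0.55 to 1.15. Over the 10 pairs the smallest exact permutation p for a genotype difference in the ratio was 0.114, in pair 19, and the adjusted values were 0.464 to 0.629.

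**Figure D3:**
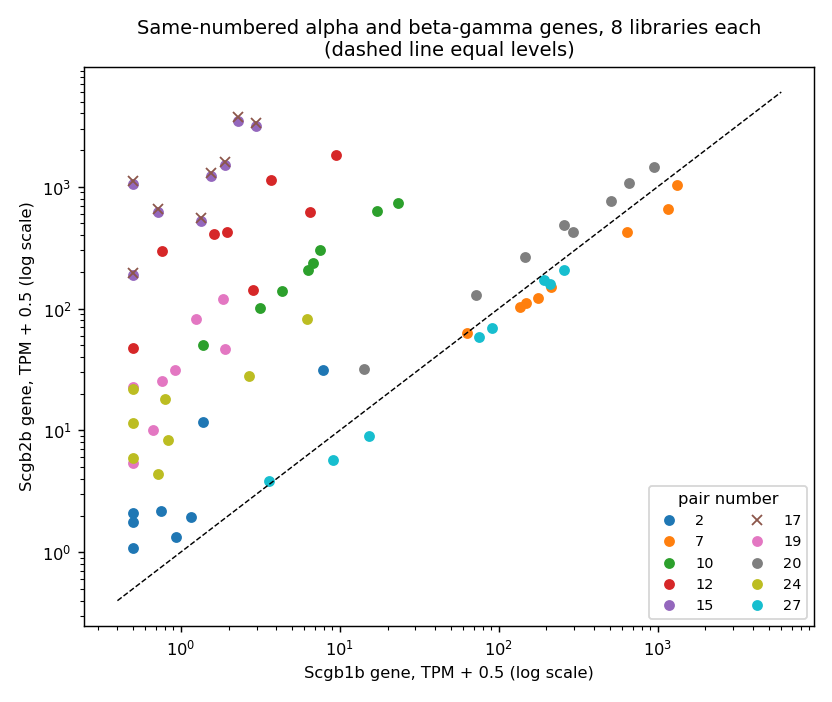
TPM + 0.5 of the alpha gene (x axis) against its same-numbered beta-gamma gene (y axis) in each of the 8 libraries, both on log axes, coloured by pair number, with a dashed line at equal levels. Pairs 7, 20 and 27 follow the line over more than an order of magnitude, and the other pairs lie above it, pairs 15 and 17 farthest.

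Promoter sequence is shown for pair 17, the pair with the most abundant gene, and for pair 27, which followed a different pattern across libraries. The windows run from 250 bases before to 50 after the RefSeq start site (GRCm38.p6). Capitals mark AGAACA or its reverse complement TGTTCT, which is 1 side of the classical androgen response element, and TATAAA read on the gene's strand.
Scgb2b17 (chr7:33056503-33056802, minus strand): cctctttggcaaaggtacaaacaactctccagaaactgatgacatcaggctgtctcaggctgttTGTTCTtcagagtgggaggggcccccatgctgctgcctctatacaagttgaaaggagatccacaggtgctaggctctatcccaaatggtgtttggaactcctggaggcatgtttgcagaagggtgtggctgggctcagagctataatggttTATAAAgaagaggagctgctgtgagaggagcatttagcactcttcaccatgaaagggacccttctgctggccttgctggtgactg
Scgb1b17 (chr7:33063215-33063514, plus strand): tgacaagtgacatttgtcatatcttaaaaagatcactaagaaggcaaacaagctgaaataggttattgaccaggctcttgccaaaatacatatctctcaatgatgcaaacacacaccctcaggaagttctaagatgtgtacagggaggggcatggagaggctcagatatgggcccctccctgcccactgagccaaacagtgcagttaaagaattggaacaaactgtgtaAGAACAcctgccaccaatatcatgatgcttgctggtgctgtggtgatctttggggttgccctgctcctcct
Scgb2b27 (chr7:34013893-34014192, minus strand): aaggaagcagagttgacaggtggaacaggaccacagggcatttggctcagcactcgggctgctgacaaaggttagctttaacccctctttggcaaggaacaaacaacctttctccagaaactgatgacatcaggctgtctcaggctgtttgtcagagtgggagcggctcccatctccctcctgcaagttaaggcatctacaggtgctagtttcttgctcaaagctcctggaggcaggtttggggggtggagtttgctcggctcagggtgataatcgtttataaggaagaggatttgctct
Scgb1b27 (chr7:34021231-34021530, plus strand): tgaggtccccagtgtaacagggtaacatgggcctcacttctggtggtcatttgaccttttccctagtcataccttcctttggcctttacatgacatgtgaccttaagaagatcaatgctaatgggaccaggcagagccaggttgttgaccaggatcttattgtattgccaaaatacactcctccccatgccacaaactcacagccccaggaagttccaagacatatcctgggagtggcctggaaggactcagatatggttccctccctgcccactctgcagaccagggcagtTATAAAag
The window of Scgb2b17 was identical to those of Scgb2b15 and of the pseudogene Scgb2b10 over all 300 bases, and the window of Scgb1b17 to that of Scgb1b15.

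Promoter windows were found for 24 members, 7 alpha and 17 beta-gamma. The complete androgen response element, taken as AGAACA and TGTTCT with any 3 bases between them, which reads the same on both strands, was in 0 of 24 windows and in 0.00913% of all 32851 windows of the same length. AGAACA or TGTTCT was in 18 of 24 windows (75%), 3 of 7 alpha and 15 of 17 beta-gamma, against 19.0% of all windows. It was in neither window of pair 27. TATAAA or TTTATA was in 18 of 24 windows (75%), against 13.6% of all windows. The windows of these genes descend from common ancestors and are not independent of each other. A match describes the letters only, and the start site of Scgb1b27 in this table lies upstream of its TATAAA, unlike in Scgb2b17, so these windows are not in register.

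Single genes were tested with limma on log2(TPM + 0.5), with genotype and sex as terms, and p-values were adjusted over all 20305 genes tested. All 30 members passed the filter of a mean of 0.5 TPM. In this model 14 members were called, 4 alpha and 10 beta-gamma, and all 14 were higher in knockout. Over all genes tested 0.586% of genes were called, and 0.212% were called and higher in knockout. Before adjustment 23 members had a p under 0.05, where 3.10% of all genes passed. The median log2 fold change of the members was 2.05 against the median gene, and 26 of 30 lay above it. The median of all genes is 0 on this scale by construction. The called alpha genes were Scgb1b3, Scgb1b7, Scgb1b20 and Scgb1b29. The called beta-gamma genes were Scgb2b7, Scgb2b12, Scgb2b15, Scgb2b17, Scgb2b19 and Scgb2b20 and the pseudogenes Scgb2b6, Scgb2b10, Scgb2b30 and Scgb2b33.

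These calls depended on how the model was set up. With no filter on low values, with an animal series term and with limma-voom on recovered reads, 0 members were called, where 0.262%, 0.749% and 0.534% of all genes were called. At an unadjusted p under 0.05 there were 24, 24 and 22 members (limma), where 3.42%, 6.05% and 3.26% of all genes passed. The log2 fold changes of the 14 genes named above were 2.12 to 3.24 with no filter, 1.66 to 2.98 with the series term and 2.01 to 2.83 with limma-voom. With each library rescaled by its median ratio, 1 member was called, Scgb2b28-ps, where 0.767% of all genes were called. Of the 14 named above 0 remained, although their log2 fold changes stayed at 2.05 to 3.17. Without the sex term 2 members were called, Scgb2b6 and Scgb2b28-ps, where 0.65% of all genes were called. The sex term gives heterozygous replicate 1 and knockout replicate 1 a weight of 0.5 each in the genotype difference and the other 6 libraries 0.167 each. Without heterozygous replicate 1 there were 4 called members, Scgb1b7, Scgb1b29, Scgb2b6 and Scgb2b7, where 0.406% of all genes were called, and the log2 fold changes of the 14 were 1.84 to 3.14. Heterozygous replicate 1 was the lowest of the 8 libraries in 13 of the 14 called genes, and knockout replicate 1 or 3 was the highest in all 14. In the 5 libraries whose titles end in the same number, fitted without the sex term, 14 members were called, 10 of them among the 14 named above, where 1.83% of all genes were called. The heterozygous animals of this subset were both female and 2 of its 3 knockout animals were male.

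Among alpha genes, Scgb1b7 (ENSMUSG00000078759) was at 62.7, 135, 177 and 214 TPM in heterozygous replicates 1 to 4. In knockout replicates 1 to 4 it was at 1324, 645, 1165 and 149 TPM. Knockout replicates 1, 2 and 3 stood above all heterozygous libraries, and knockout replicate 4 lay within their range. The fitted change was 2.74 on the log2 scale, measured from the median gene as are those that follow (SE 0.50, limma adjusted p = 0.00363).

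Scgb1b29 (ENSMUSG00000078757), whose stretches all occur in Scgb1b7, was at 83.8, 178, 236 and 281 TPM in heterozygous and 1754, 856, 1546 and 193 TPM in knockout libraries. It repeated the order of Scgb1b7 in the knockout libraries and in the heterozygous ones. Its log2 fold change was 2.73 (SE 0.50, limma adjusted p = 0.00385), and the 2 results are not independent.

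Scgb1b20 (ENSMUSG00000094978) had the largest fitted rise among called members. It was at 13.8, 71.5, 293 and 256 TPM in heterozygous and 662, 509.6, 946 and 147 TPM in knockout libraries. Heterozygous replicates 3 and 4 exceeded knockout replicate 4. On the log2 scale the fitted change was 3.19 (SE 0.64, limma adjusted p = 0.00957), without heterozygous replicate 1 it was 1.99 and not called, and without knockout replicate 1 it was 4.397.

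The beta-gamma gene Scgb2b12 (ENSMUSG00000097982) had the smallest adjusted p of the family. It was at 47.2, 141, 295 and 424 TPM in heterozygous and 1147, 615, 1808 and 411 TPM in knockout libraries. Only knockout replicate 4 fell inside the heterozygous range, just below its top. In log2 terms the change was 2.88 (SE 0.50, limma adjusted p = 0.00246). Without heterozygous replicate 1 it was 2.21 and not called (limma adjusted p = 0.196), and without knockout replicate 1 it was 3.55.

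Scgb2b7 (ENSMUSG00000094053) was at 63.0, 103, 123 and 150.0 TPM in heterozygous libraries, a narrow spread for an abundant member. In knockout libraries it was at 1043, 426, 651 and 111 TPM. Its log2 fold change was 2.49 (SE 0.47, limma adjusted p = 0.00421), 3.14 without heterozygous replicate 1, and 1.85 and not called without knockout replicate 1 (limma adjusted p = 0.107). Its partner on the other strand is Scgb1b7, and the 2 genes were highest in the same library, knockout replicate 1.

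Scgb2b20 (ENSMUSG00000094305) was at 31.2, 129, 429 and 482 TPM in heterozygous and 1068, 764, 1448 and 267 TPM in knockout libraries. Like its partner Scgb1b20 it was lowest in heterozygous replicate 1, and heterozygous replicates 3 and 4 exceeded knockout replicate 4. Its log2 fold change was 2.92 (SE 0.59, limma adjusted p = 0.00957). It was 1.91 and not called without heterozygous replicate 1 (limma adjusted p = 0.609), and 3.93 without knockout replicate 1.

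Scgb2b6 (ENSMUSG00000102002), a pseudogene in GENCODE at 5.20 TPM on average, had groups that did not overlap. Among called members this held only for Scgb2b6 and Scgb1b3. Scgb2b6 was at 1.85, 0.422, 1.65 and 1.31 TPM in heterozygous and 12.2, 5.31, 11.98 and 6.82 TPM in knockout libraries. These values rest on 2 to 10 reads per heterozygous and 21 to 42 reads per knockout library, and 100% of its transcript stretches are its own. The log2 fold change was 2.22 (SE 0.46, limma adjusted p = 0.0108). It was also called without the sex term (adjusted p = 0.00169 by limma), without heterozygous replicate 1, and in the 7100s animals alone without the sex term, but not after median-ratio scaling and not without knockout replicate 1. Without heterozygous replicate 1 the log2 fold change was 3.12 and without knockout replicate 1 it was 1.32.

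Scgb2b33 (ENSMUSG00000101487), the most abundant pseudogene, was at 66.6, 125, 389 and 378 TPM in heterozygous and 1132, 467, 1478 and 279 TPM in knockout libraries. Knockout replicate 4 lay between the heterozygous libraries. The log2 fold change was 2.41 (SE 0.51, limma adjusted p = 0.0134). The pseudogene Scgb2b30, whose promoter window matched that of Scgb2b33 at 99.7% of positions, had the same log2 fold change of 2.41. Of its transcript stretches 32.5% occur in Scgb2b33, so reads may stand in both rows and the 2 results may not be independent.

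The remaining called genes were Scgb1b3, Scgb2b10, Scgb2b15, Scgb2b17 and Scgb2b19, beside Scgb2b30. Scgb2b17 was at 197, 558, 1291 and 1117 TPM in heterozygous and 3328, 1611, 3707 and 656 TPM in knockout libraries. Heterozygous replicates 3 and 4 were above knockout replicate 4. The log2 fold change was 2.22 (SE 0.48, limma adjusted p = 0.0167), and 1.44 without the sex term. Scgb2b15, which shares a transcript with it, was at 187, 524, 1222 and 1048 TPM in heterozygous and 3152, 1519, 3492 and 618 TPM in knockout libraries, in the same order. Its log2 fold change was also 2.22 (SE 0.48, limma adjusted p = 0.0167), and the 2 results are not independent. Scgb1b3, with 95.3% of its stretches its own, was at 9.48, 14.0, 38.2 and 42.7 TPM in heterozygous and 98.4, 60.0, 192 and 43.9 TPM in knockout libraries, without overlap by a margin of 43.9 against 42.7 TPM.

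Groups did not overlap in 5 members, all higher in knockout: Scgb1b3, Scgb2b6, Scgb2b11, Scgb2b18 and Scgb2b28-ps. Of all genes tested 1.40% had groups without overlap, and 0.473% were also higher in knockout. Apart from Scgb1b3 these were low genes. Scgb2b28-ps, named after its values were seen, was at 0.181, 0.413, 0.647 and 0.515 TPM in heterozygous and 1.84, 1.98, 2.23 and 1.95 TPM in knockout libraries. That is 1 or 2 reads against 6 to 8 reads per library.

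**Figure D4:**
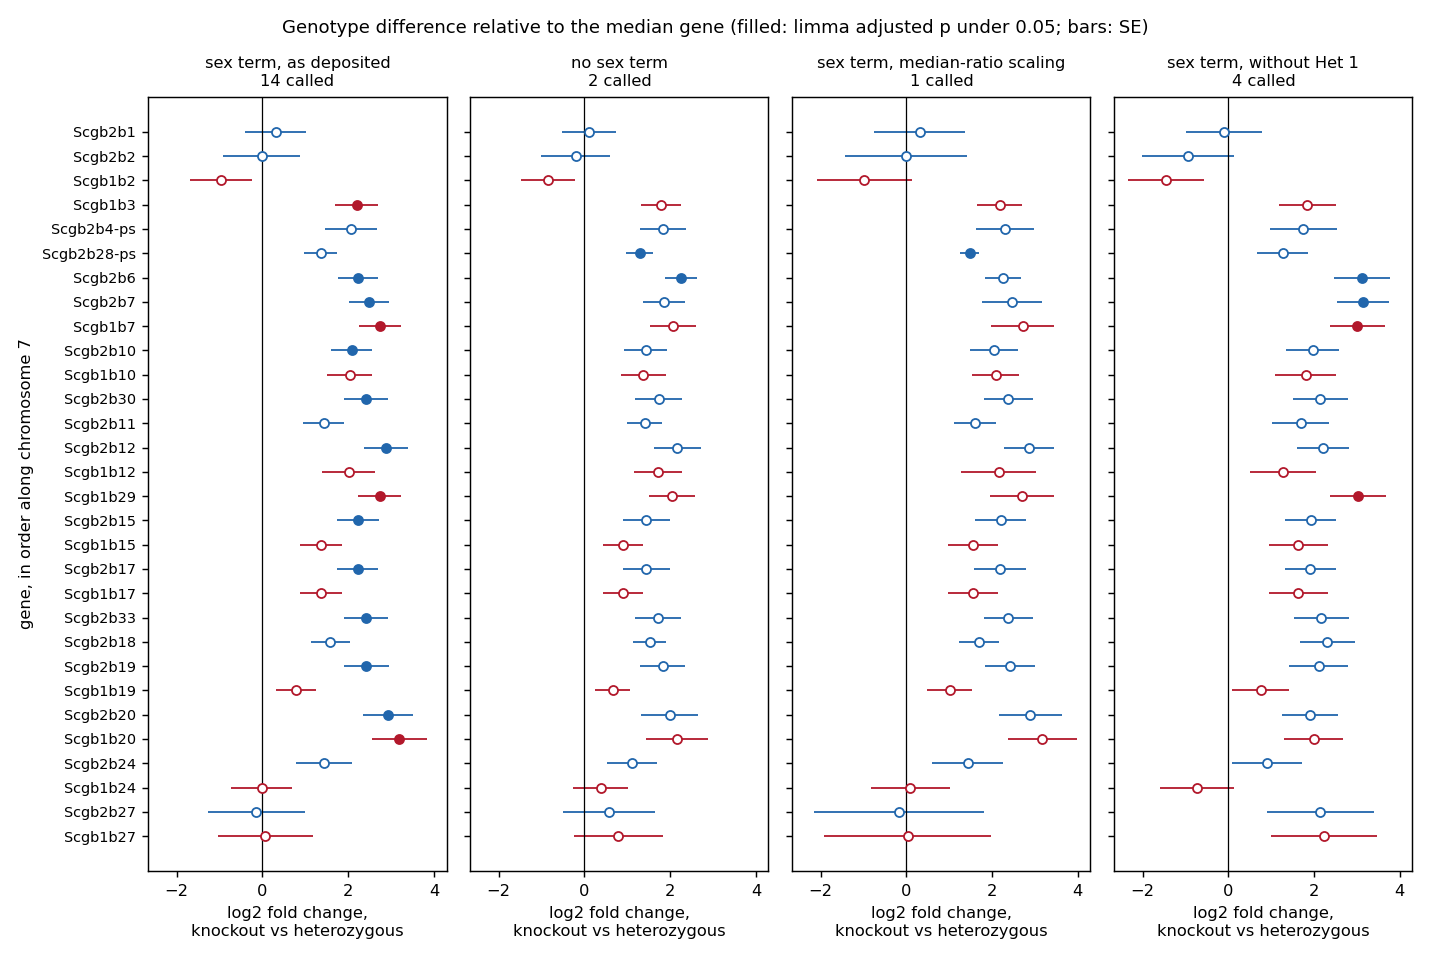
Log2 fold change of each member, knockout against heterozygous, relative to the median gene, with bars for the standard error, red for alpha and blue for beta-gamma genes, and filled points for a limma adjusted p under 0.05. The panels show the model with the sex term (14 called), without it (2 called), with it after median-ratio scaling (1 called) and with it but without heterozygous replicate 1 (4 called); most points stay on the right of 0 in each panel.

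Of the 16 members not called, 13 averaged under 10 TPM. The log2(TPM + 0.5) scale understates changes of low genes. Scgb1b15 and Scgb1b17, with 0 to 10 reads per library, had a log2 fold change of 1.36 (limma adjusted p = 0.395), and Scgb1b19 had 0.78. Scgb1b10 came closest to the threshold among alpha genes, with a log2 fold change of 2.03 and a limma adjusted p of 0.0633. Scgb1b12 had 2.02 and Scgb2b24 had 1.43, neither past the threshold. With a pseudocount of 0.1 the log2 fold change was 2.65 for Scgb1b15 and Scgb1b17, 1.68 for Scgb1b19 and 3.25 for Scgb1b12, beside 2.20 for Scgb2b15 and 2.87 for Scgb2b12. None of these 4 alpha genes was called at that pseudocount, with limma adjusted p of 0.463, 0.463, 0.998 and 0.135, and the SE grew as well, from 0.50 to 0.92 for Scgb1b15.

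The salivary genes Scgb1b27 and Scgb2b27 followed another order of libraries. Scgb1b27 (ENSMUSG00000066583) was at 194, 256, 8.56 and 3.11 TPM in heterozygous and 90.4, 212, 74.9 and 14.7 TPM in knockout libraries. Scgb2b27 (ENSMUSG00000066584) was at 170.4, 206, 5.20 and 3.31 TPM in heterozygous and 69.2, 158, 57.8 and 8.42 TPM in knockout libraries. Both were highest in heterozygous replicate 2 and lowest in heterozygous replicate 4, so the heterozygous group held both ends of the range. The log2 fold changes were 0.07 and −0.14 (limma adjusted p = 0.9995 for each).

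Results for the salivary pair turned on which animals were compared. Within the 7100s animals, which leave out heterozygous replicates 1 and 2, the log2 fold change of Scgb2b27 was 3.58 without the sex term (limma adjusted p = 0.0419). With the sex term, which then sets knockout replicate 1 alone against heterozygous replicates 3 and 4, it was 4.22 (limma adjusted p = 5.80e-06), a value that rests on 1 knockout library whose spread is assumed to be that of the other libraries. In the 5 libraries with the same title number, without the sex term, it was 4.49 (limma adjusted p = 1.67e-10), and that of Scgb1b27 was 4.59 (limma adjusted p = 3.55e-10). This subset, chosen after the data were seen, sets 2 heterozygous females against 3 knockout animals, 2 of them male. It leaves out knockout replicate 4, where Scgb2b27 was at 8.42 TPM and Scgb1b27 at 14.7 TPM. In heterozygous replicates 3 and 4 these genes were at 3.11 to 8.56 TPM. Since the earlier animal series held no knockout, series and genotype cannot be told apart for heterozygous replicates 1 and 2.

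By position in the cluster the summed levels of the 30 genes showed 3 patterns, described here after their values were seen. The 25 genes from Scgb1b3 to Scgb1b24 summed to 885, 2215, 5146 and 5015 TPM in heterozygous and 16514, 8310.2, 18818 and 3326 TPM in knockout libraries. They made up 70.8% of family TPM in heterozygous replicate 1, 81.3% in heterozygous replicate 2 and 95.7% or more in the other 6 libraries. The 4 highest members of a library held 54.7% to 64.5% of its family TPM, so the sums rest largely on a few genes. Some middle genes departed from the sum. Scgb2b24 was at 27.2 TPM in heterozygous replicate 4 and 21.5 TPM in knockout replicate 1, where Scgb1b24 was at 0 TPM. Scgb1b12 and Scgb1b19 were higher in knockout replicate 2 than in knockout replicate 1. The last 2 genes, the salivary pair, summed to 364, 462, 13.8 and 6.42 TPM in heterozygous and 159.5, 369, 133 and 23.2 TPM in knockout libraries. That was 29.1% of family TPM in heterozygous replicate 1, 16.97% in heterozygous replicate 2 and at most 4.26% elsewhere. The spread over libraries was 72.0 times for the last 2 genes and 21.3 times for the middle 25.

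The first 3 genes, Scgb2b1, Scgb2b2 and Scgb1b2, were low except in a few animals. Their sum was 1.63, 46.4, 2.25 and 1.11 TPM in heterozygous and 2.81, 1.53, 14.6 and 4.88 TPM in knockout libraries. Heterozygous replicate 2 was highest for each of the 3. Scgb2b2 reached 30.8 TPM there, from 259 reads, and 11.2 TPM in knockout replicate 3.

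Some other gland genes were high in the same libraries, and their part in the results was not tested. The summed level of Dcpp1, Dcpp2 and Dcpp3, secreted proteins of salivary and related glands, was 502, 976, 1590.5 and 1989 TPM in heterozygous and 4571, 1808, 3954 and 373 TPM in knockout libraries. Like the middle 25 genes it was highest in knockout replicates 1 and 3, but it was lowest in knockout replicate 4. The summed level of Obp1a and Obp1b, odorant-binding lipocalins of nasal glands, was 83641, 104282, 201 and 215 TPM in heterozygous and 18261, 65206, 236 and 2474 TPM in knockout libraries. As for the salivary pair, heterozygous replicates 1 and 2 and knockout replicate 2 were the 3 highest libraries. The order of libraries varied among other genes of the nasal gland list, which is examined below. Obp2a, Obp2b, Lcn3 and Lcn4 were lowest in heterozygous replicate 2, at 19114, 21867, 8077 and 5253 TPM. Lcn11 had the same 3 highest libraries as Obp1a and Obp1b. Bpifb9a, a secreted protein of the BPI fold family, was at 1053 TPM in heterozygous replicate 2, where the first 3 genes were highest, and at 15.4 to 173 TPM in the other libraries, lowest in knockout replicate 3, where the first 3 genes were second highest. Marker lists of other cells also stood apart in heterozygous replicate 2. The 5 sustentacular cell markers summed to 4807 TPM there and 1020 to 1745 TPM in the other libraries, and the same 3 libraries were highest as for the first 3 genes, heterozygous replicate 2 and knockout replicates 3 and 4. The 5 erythrocyte markers summed to 20929 TPM there and 3900 to 14334 TPM in the others. In each of these 2 lists 0 genes were called by genotype, where 0.586% of all genes tested were called. At an unadjusted p under 0.05 (limma) there were also 0, where 3.10% of all genes passed.

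**Figure D5:**
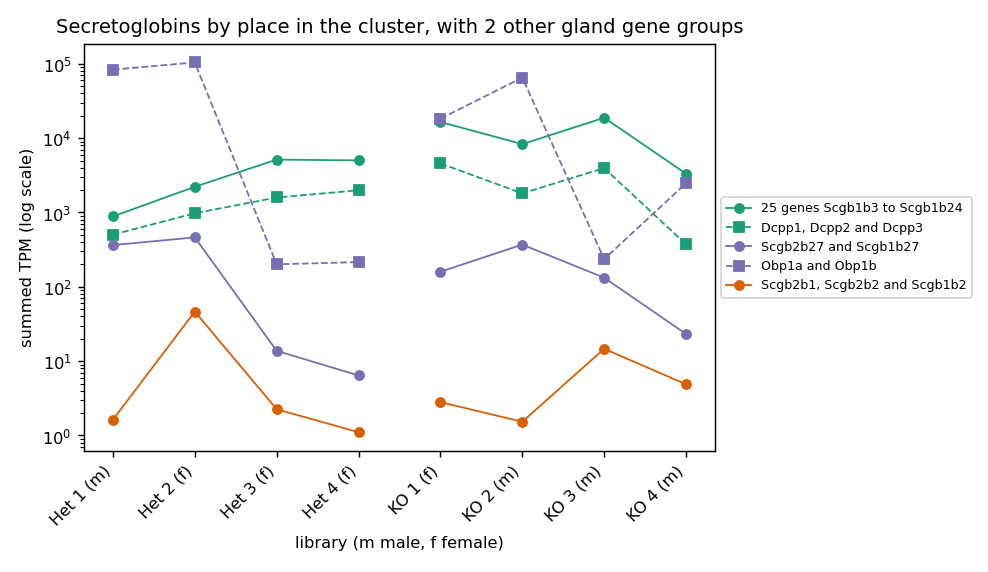
Summed TPM (log axis) in each library of the first 3, the middle 25 and the last 2 genes of the cluster (circles), with the sums of Dcpp1 to Dcpp3 and of Obp1a and Obp1b (squares, dashed). The middle 25 genes and the Dcpp genes are highest in knockout replicates 1 and 3, and the last 2 genes and the Obp1 genes in heterozygous replicates 1 and 2 and knockout replicate 2.

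In the gland lists 0 genes were called by genotype. For each list, the counts below stand against 0.586% of all genes tested that were called and 3.10% at an unadjusted p under 0.05. Of the nasal gland list 15 of 18 genes were tested, with 0 called and 1 at an unadjusted p under 0.05 (limma), and their summed level was 115464 to 343653 TPM in heterozygous and 138545 to 284842 TPM in knockout libraries. Set against the mean log2 level of that list in the same library, the family was 1.64 higher in knockout on the log2 scale (two-sided exact permutation p = 0.171, adjusted p = 0.343). That difference was 0.32 within the 7100s animals (exact permutation p = 0.8), 0.83 in the 5 libraries with the same title number (exact permutation p = 0.4), 1.03 without heterozygous replicate 1 or without knockout replicate 3, and 2.36 as the mean of both sexes (exact permutation within sex, p = 0.125). The salivary and lacrimal list had 10 of 26 genes tested, with 0 called and 5 at an unadjusted p under 0.05 (limma), a median log2 fold change of 0.69, and a summed level of 629 to 2122 TPM in heterozygous and 526 to 4760 TPM in knockout libraries. Those 5 were Bpifa2, Dcpp2, Dcpp3, Muc19 and Pip, named after their values were seen, with log2 fold changes of 2.45, 1.36, 1.44, 1.34 and 0.83. Bpifa2, a secreted protein of salivary glands, was at 0.122, 1.77, 9.11 and 4.36 TPM in heterozygous and 23.4, 16.4, 6.18 and 0.467 TPM in knockout libraries. Muc19, a gel-forming mucin, was at 0.396, 0.199, 2.92 and 1.54 TPM in heterozygous and 3.01, 1.05, 5.76 and 4.44 TPM in knockout libraries. Groups overlapped for both. Pip, a secreted protein of salivary and lacrimal glands, was at 48.2 to 115 TPM in heterozygous and 124 to 324 TPM in knockout libraries, without overlap. Their part in the results for the family was not tested. The vomeronasal neuron list summed to 381 TPM in heterozygous replicate 1 and 831 to 1447 TPM in the other 7 libraries.

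Other secretoglobins and androgen signalling genes were examined alongside. Of the 3 tested secretoglobins outside the family 0 were called, with 0 at an unadjusted p under 0.05 (limma). Scgb1c1, expressed in nasal epithelium, was at 548, 2071, 154 and 1212 TPM in heterozygous and 1996, 1153, 684 and 1893 TPM in knockout libraries, with overlapping groups. Of the 11 tested androgen signalling genes 0 were called, with 0 at an unadjusted p under 0.05 (limma) and a median log2 fold change of 0.05.

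Sex gave 0 called members in the same limma model, where 0.0492% of all genes were called, and 0 with limma-voom on recovered reads. At an unadjusted p under 0.05 there were 13 members, each lower in males, where 2.27% of all genes passed. The smallest adjusted p was 0.763, for Scgb2b15 and Scgb2b17, with log2 differences of −1.57 each against the median gene (male minus female). Heterozygous replicate 1 and knockout replicate 1 carry the same high weight in this term as in the genotype term. Leaving out 1 library gave up to 4 called members, in the fit without heterozygous replicate 4, where 0.449% of all genes were called. Compared directly, the family sum was 8063 ± 7913 TPM in males and 7396 ± 6287 TPM in females (SD, n = 4 each). The mean TPM was thus higher in males, while the mean of the log2 sums, on which the test was run, was lower in males, with a difference of −0.19 (two-sided exact permutation p = 0.857, adjusted p = 0.857). The log2 ratio of beta-gamma to alpha differed by −0.30 between males and females (exact permutation p = 0.4, adjusted p = 0.6). Both direct comparisons mix sex with genotype, since 3 of the 4 males were knockout and 3 of the 4 females heterozygous. Among heterozygous animals the family sum was 1251 TPM in the male and averaged 4303 TPM in the 3 females. Among knockout animals it averaged 10333.5 TPM in the 3 males and was 16677 TPM in the female. A difference of the genotype effect between the sexes was called for 0 members by limma, where 0.133% of all genes were called, with a smallest adjusted p of 0.716, for Scgb1b20. There were 5 members at an unadjusted p under 0.05, where 3.05% of all genes passed.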

How the data were processed

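Polyadenylated RNA of the vomeronasal organ was sequenced in paired reads from directional libraries, per the labels' protocols. The submitters' processing notes name Trim Galore 0.6.5, cutadapt 5.1, STAR 2.7.11b, deepTools 3.5.5 and the build mm10 (GRCm38). The counting program and its treatment of strand and of multiply matching reads are not given in the sources used here. The authors deposited 1 table of TPM values for 27532 genes and 8 libraries, and 0 sample columns were left unused.

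Whole reads were recovered by multiplying TPM by the summed exon length in GENCODE M21. Between 97.8% and 98.3% of low values (at most 20 reads) per library fell within 0.05 of a whole read, and 803 genes had no exon length. Intervals and floors of 3 reads cover counting error only.

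A mean of 0.5 TPM or more was required, and log2(TPM + 0.5) was modelled on genotype and sex by limma (version 3.58.1, run in R version 4.3.3; lmFit, eBayes with trend), with Benjamini-Hochberg adjustment over 20305 genes and a threshold of 0.05. The model was tested on simulated data in which 200 genes were changed. It recovered 74% of changes of 2 and 94% of changes of 4 on the log2 scale, with 5 false calls. Values were drawn independently for each gene and library. The simulation thus cannot show how an outlying library or correlated genes affect the calls. The median gene moved by 0.19 on the log2 scale in knockout, and by −0.01 after median-ratio scaling, so genotype fold changes are relative to it. Sums and ratios were compared by two-sided exact permutation over 70 assignments. Described one by one were the 4 most abundant alpha and 4 most abundant beta-gamma genes and their partners, the salivary genes, the 8 called members with the smallest adjusted p, and the most abundant pseudogene. Other genes were named after their values were seen. Coding sequences of alpha genes and 1 gene of a list are not reported here. Members, lists and tests were chosen with earlier results of these data known. Alternatives were other pseudocounts, filters, scalings, designs, subsets of members and libraries, and limma-voom on recovered reads. Chosen after seeing the data were median-ratio scaling without the sex term, the 6 libraries without replicate 1 of each group, the 5 libraries whose titles end in the same number, and the subsets without pair 27 or with 1 member per near-identical group.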

Additional observations from a re-analysis of the deposited data

Results flagged for a closer look

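Of 78 groups of 4 libraries examined, 8 held a library far from the other 3. Chance gives about 1 in 20 where values are normally distributed and groups independent. The groups here were not independent, since sums were examined beside the genes they hold, so no excess can be read from the 8. At the start of the cluster, heterozygous replicate 2 stood apart from the other heterozygous libraries for Scgb2b1 at 8.24 TPM, Scgb2b2 at 30.8 TPM and Scgb1b2 at 7.39 TPM. The sum of the 3 genes stood apart in the same library, at 46.4 TPM. Scgb2b2 also stood apart in knockout replicate 3, at 11.2 TPM against 1.28 to 1.59 TPM in the other knockout libraries. Scgb1b24, a low alpha gene, stood apart in heterozygous replicate 4 at 2.18 TPM (7 reads) and in knockout replicate 3 at 5.73 TPM (17 reads). Scgb2b11 was at 0.166 TPM in heterozygous replicate 4, which is 1 read, and at 0 in the other heterozygous libraries.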

How the results depend on the processing

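Results kept their direction and side of the threshold under the alternatives run, except as given here, and where no cause is given it was not tested. Over 21 named members, 302 of 478 fold changes under an alternative kept both, 147 fell below the threshold, 14 rose past it with the same sign, and 15 changed sign, 3 of them past the threshold. Of the family, 14 members were called with other pseudocounts, with a filter at 1 TPM and with a replicate block. Over all genes, 113 and 114 of 20305 were called with the pseudocounts, 111 of 17992 with that filter and 128 of 20305 with the block. The count of members was 0 with no filter, and 1 with median-ratio or upper-quartile scaling (155 of 20197 and 143 of 20224 genes called). It was 2 without the sex term, and 2 with median-ratio scaling and no sex term (178 of 20197 genes called). It was 0 with an animal series term, 0 with limma-voom on recovered reads, 8 in the 7100s animals with the sex term, which rests on 1 knockout library, and 3 without it. It was 1 in the 6 libraries other than replicate 1 of each group (144 of 20524 genes called), and 4 to 20 when 1 library was left out, lowest without heterozygous replicate 1 and highest without knockout replicate 4. By sex, 1 member was called in the 7100s animals, where 178 of 20593 genes were called, and 0 to 4 when 1 library was left out, where 11 to 91 genes were called. In the whole table the genotype count of 119 became 72 with no filter, 371 in the 7100s animals with and 184 without the sex term, 374 in the 5 libraries with the same title number, and 83 to 254 when 1 library was left out.

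Leaving out 1 library moved the log2 difference of the alpha sum between 1.46 and 2.41 and of the beta-gamma sum between 1.18 and 2.15. The log2 ratio difference moved between −0.32 and 0.0923, to 0.0736 with 1 member per near-identical group and to 0.0691 with labels permuted within sex. The family difference by sex moved between −0.82 and 0.49. The log2 fold change of Scgb1b27 moved between −2.10 and 2.23 when 1 library was left out, and to −0.28 with limma-voom. It was 4.27 with the series term. In the 7100s animals it was 4.31 with the sex term, which rests on 1 knockout library. Without that term it was 3.78 there and passed the threshold (limma adjusted p = 0.0197). The log2 fold change of Scgb2b27 moved between −2.44 and 2.15 when 1 library was left out. It was 0.58 without the sex term, 0.54 with median-ratio scaling as well, 4.10 with the series term, 4.22 and 3.58 in the 7100s animals with and without the sex term, 1.29 in the 6 libraries and 4.49 in the 5 with the same title number.

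Replicate numbers did not pair the animals, since same-numbered libraries deviated together with correlations of only −0.06 to 0.10. With a replicate block the alpha and beta-gamma sums had a sign-flip exact p of 0.25. Counts of 10 reads or fewer limit Scgb1b15, Scgb1b17, Scgb1b19 and Scgb2b28-ps in all 8 libraries, and Scgb1b2, Scgb1b12, Scgb1b24, Scgb2b1, Scgb2b2, Scgb2b4-ps, Scgb2b6, Scgb2b11 and Scgb2b18 in 4 to 7 of them.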
